A study of Mus musculus with 48 samples.

Results

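Cytosolic ribosomal proteins are the structural proteins of the ribosome that translates messages from the nuclear genome. Their genes were taken by name, as symbols of the Rpl or Rps series with a number plus Rplp0, Rplp1, Rplp2 and Rpsa, and by a mean of at least 6 on the log2 scale over all 48 samples. This gave 59 genes among the 27281 entries of the deposited table, 35 of the large subunit and 24 of the small subunit. The naming pattern fitted 62 entries in all. The 3 just outside the minimum had mean log2 levels of -1.91 for Rpl3l, -1.86 for Rpl39l and -0.03 for Rps12, and those just inside had 9.17 for Rps7, 9.54 for Rpl22l1, 9.91 for Rps27l and 9.92 for Rpl7l1. A wide gap therefore separated the members from the rest, and all 59 were among the 13409 genes tested. All 59 are annotated as protein coding in the mouse build GRCm38, on 17 chromosomes, with 13 of them on chromosome 7.

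The samples were bulk poly(A) RNA from conditionally immortalized mouse striatal progenitor lines that model Huntington's disease, the wild-type line STHdh Q7 and the homozygous mutant huntingtin knock-in line STHdh Q111. Each genotype was a single purchased line with the strain label C57BL/6, so genotype and line cannot be told apart. After seeding in serum, cells were moved to serum-free medium with a compound or with the DMSO vehicle for 24 h, and the question behind the series was which transcripts respond to 14 compounds reported to protect such cells. Each of 16 conditions had 3 samples labelled as triplicates. Q7 and Q111 cells received vehicle, and Q111 cells alone received the compounds. Diacylglycerol kinase inhibitor II (DKI) was given at 10 µM, as were loxapine, meclizine, selisistat and cyproheptadine. Pizotifen was given at 5 µM and cysteamine at 250 µM. Sodium butyrate was given at 1 mM and 4-deoxypyridoxine (DOP), a vitamin B6 antagonist, at 4 mM. Trichostatin A was given at 10 nM, fingolimod phosphate at 250 nM, nicotinamide and haloperidol at 0.5 nM, and nortriptyline at 1 nM. The study sorted some compounds by metabolite profile into a Group A of pizotifen, loxapine and cyproheptadine and a Group B of meclizine and DKI. Read counts per sample were not analysed here, so sequencing depth is unknown.

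Each ribosome carries a single copy of most of its proteins, and cells make them in step with ribosomal RNA. Most of their messages begin with a C followed by a run of pyrimidines, the terminal oligopyrimidine (TOP) element, through which mTOR signalling controls their translation. Free ribosomal proteins are unstable, and some, Rpl5 and Rpl11 among them, also bind Mdm2, which links ribosome assembly to p53.

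The start regions of the genes are shown because the members moved together in several treatments and many messages of this class are known to begin with a pyrimidine run. RefSeq promoters on build GRCm38.p6 were available for 47 of the 59 members, at 55 starts, each with 250 bases before and 50 after the annotated start. The 60 bases from 40 before to 20 after are printed 5′ to 3′ on the gene's strand, with capitals for a run of 8 or more C or T within 20 bases of the start or for a searched motif. The set holds Rpl22l1 and Rpl12, which had the widest differences under DKI, Rps27 and Rps18 of the small subunit, Rpl35 and Rpl28 with clear pyrimidine runs, Rpl38 with a second motif, and Rpl7l1, which varied least between conditions.
Rpl22l1 (chr3:28805468-28805527, plus strand): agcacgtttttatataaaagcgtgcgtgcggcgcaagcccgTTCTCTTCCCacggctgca
Rpl12 (chr2:32961672-32961731, plus strand): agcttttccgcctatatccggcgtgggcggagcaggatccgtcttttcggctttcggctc
Rps27 (chr3:90213629-90213688, minus strand): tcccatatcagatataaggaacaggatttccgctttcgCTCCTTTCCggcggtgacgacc
Rps18 (chr17:33955646-33955705, minus strand): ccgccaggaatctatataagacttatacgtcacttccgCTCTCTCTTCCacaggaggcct
Rpl35 (chr2:39005112-39005171, minus strand): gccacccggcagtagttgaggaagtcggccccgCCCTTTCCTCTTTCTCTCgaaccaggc
Rpl28 (chr7:4792925-4792984, plus strand): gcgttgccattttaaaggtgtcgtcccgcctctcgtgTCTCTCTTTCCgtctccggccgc
Rpl38 (chr11:114668540-114668599, plus strand): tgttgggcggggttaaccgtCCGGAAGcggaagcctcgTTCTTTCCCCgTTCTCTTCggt
Rpl7l1 (chr17:46782637-46782696, minus strand): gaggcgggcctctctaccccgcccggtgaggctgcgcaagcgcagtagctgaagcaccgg

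A run of 8 or more C or T within 20 bases of the start was found at 24 of the 55 member starts (43.6%) and at 16% of all 32851 starts. The letters CTTTCC on the gene's strand, searched from 20 bases before to 50 after the start and often part of such a run, were found at 18 member starts (32.7%) against 3.24% of all starts. CCGGAAG, letters of the binding motif of ETS factors such as GABPA, was searched on both strands over the 300 bases and found at 21 member starts (38.2%) against 8.86%. AAGATGGC, letters of the YY1 motif, was searched in the same way and found at 7 member starts (12.7%) against 2.75%. Rpl12 and Rpl7l1 held none of the marked letters in the 60 bases printed. A match is a description of letters and not a site. The median log2 difference under DKI was 0.46 for members with CTTTCC and 0.44 for those without, 0.44 and 0.45 for CCGGAAG, 0.48 and 0.44 for AAGATGGC, and 0.46 and 0.43 for the run.

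The cell label was checked against marker levels fixed as lists. Of 21 striatal and neural progenitor markers, 19 had an entry and 3 reached a mean of 6. Vimentin (Vim), an intermediate filament of progenitors and of mesenchymal cells, had a mean log2 level of 15.42, and the neuronal microtubule gene Map2 had 8.37. Foxp1, a striatal factor, was at 9.99 ± 0.10 in Q111 vehicle and 9.21 ± 0.27 in Q7 vehicle (SD, n = 3). The forebrain factors Dlx1 and Dlx2 were at 5.84 ± 0.05 and 5.42 ± 0.05 in Q111 vehicle and at 5.99 ± 0.10 and 5.30 ± 0.14 in Q7 vehicle. Nestin (Nes) and Sox2, neural stem cell genes, were at 4.96 ± 0.24 and 4.81 ± 0.02 in Q111 vehicle and at 10.95 ± 0.91 and 8.91 ± 0.47 in Q7 vehicle. The mature striatal genes Bcl11b, Ppp1r1b and Drd1 were at 0.18, 1.93 and -2.18 over all samples. The defining markers of a striatal progenitor were thus partly absent in both lines, with Nes and Sox2 lower in Q111 and Foxp1 lower in Q7.

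Markers of other cell types were mixed. Gfap of astrocytes had a mean of -0.95, and Aif1, Cx3cr1 and P2ry12 of microglia were at -2.18, -1.81 and -2.13, while the leukocyte phosphatase Ptprc was at 10.59 ± 0.15 in Q111 vehicle and 7.86 ± 0.49 in Q7 vehicle. Slc1a3 at 7.11 and Cnp at 7.81 were the most abundant markers on the astrocyte and oligodendrocyte lists, with 1 marker reaching 6 on each. Of the endothelial list, Pecam1 was at 8.35 and Cdh5 at 0.22. Of 8 mesenchymal markers 6 reached a mean of 6, led by the collagen gene Col1a1 at 14.52, with Lum and Thy1 at -0.38 and -0.17.

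Member levels, which are not divided by transcript length, ran from a mean of 9.17 to 13.99 with a median of 11.86, beside a median of 8.08 for all genes tested. After the values were taken back to the linear scale, the 59 genes held between 2.47% and 4.14% of the summed level of a sample, with a median of 3.1%. The mean over the 59 members is used below to place each sample. In Q111 vehicle it was 11.61, 11.81 and 11.99 in replicates 1, 2 and 3. Replicate 1 was the lowest of the 3 in 59 of 59 members and replicate 3 the highest in 57, so members rose and fell together between samples of a single condition and their counts are not independent observations. The collection labels place these vehicle samples on different days and at different times of day, and what set them apart was not tested.

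DKI had the highest condition mean of the members, 12.24 ± 0.11 (SD, n = 3), followed by DOP at 12.20 ± 0.09, sodium butyrate at 12.16 ± 0.08 and meclizine at 12.08 ± 0.12. Neighbours in this order overlapped. Cysteamine (12.02 ± 0.06), nicotinamide (12.01 ± 0.03) and cyproheptadine (samples at 12.04, 11.91 and 12.05) came next, all with sample values close to the highest vehicle sample. Selisistat spread as widely as the vehicle, at 11.95 ± 0.21, with its replicate 2 the highest in 52 members. Nortriptyline (11.90 ± 0.08), trichostatin A (11.88 ± 0.04), loxapine (11.82 ± 0.04), Q111 vehicle (11.81 ± 0.19), fingolimod phosphate (11.79 ± 0.13), pizotifen (11.76 ± 0.10) and haloperidol (11.73 ± 0.10) followed. Q7 vehicle was lowest at 11.69 ± 0.03. All samples of DKI, DOP and sodium butyrate lay above all Q111 vehicle samples, and those of meclizine did not, because its replicate 2 was at 11.94.

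**Figure D1:**
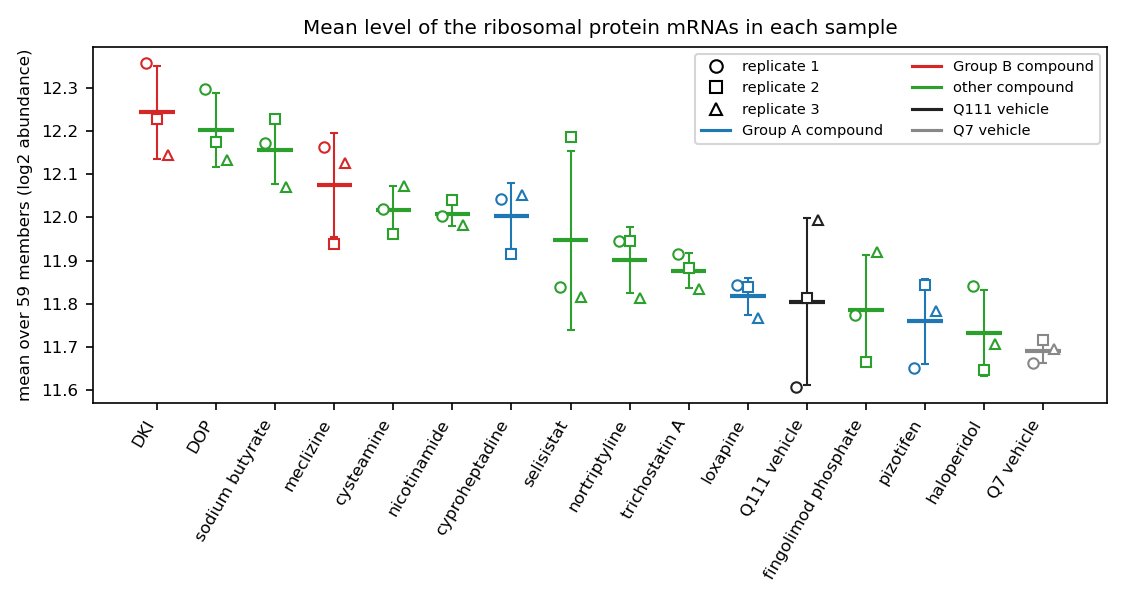
Mean log2 level of the 59 ribosomal protein genes (vertical axis) in each sample of the 16 conditions (horizontal axis, ordered by mean), with bars for the condition mean, whiskers for the SD of 3 samples, marker shape for the replicate, and colour for Group A (blue), Group B (red), other compounds (green) and vehicles (black, grey). The 3 Q111 vehicle samples span 11.61 to 11.99, and DKI lies highest with a mean of 12.24.

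Under DKI, an inhibitor of the kinases that turn diacylglycerol into phosphatidic acid, nearly all members rose against Q111 vehicle. Rpl12, a protein at the base of the ribosomal stalk, was at 13.12, 12.82 and 12.91 in the 3 DKI samples and at 11.68, 12.31 and 12.49 in vehicle. Rpl22l1, the paralog of Rpl22, was at 10.20, 10.09 and 9.91 under DKI and at 9.19, 9.33 and 9.50 in vehicle. Every DKI sample lay above every vehicle sample for both genes. Rps7, a small-subunit protein, was at 9.83, 9.74 and 9.59 under DKI and at 8.79, 9.21 and 9.49 in vehicle, again without overlap but with a wide vehicle spread.

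By limma, 58 of the 59 members were higher under DKI at an adjusted p under 0.05 and 0 were lower, where 20.4% of all genes tested were higher. The unadjusted p was under 0.05 for all 59. The median member difference was 0.44 (log2), a fold of 1.36, with a range of 0.17 to 0.78, and the median of all genes was -0.01. Rpl12 rose by 0.78 (SE 0.15, adjusted p = 3.89e-05, higher in 3 of 3 samples) and Rpl22l1 by 0.72 (SE 0.11, adjusted p = 7.18e-07, 3 of 3 samples). Called members were 34 of 35 in the large subunit and 24 of 24 in the small subunit. Rpl37a, a zinc-binding large-subunit protein, was the exception at 0.24 (adjusted p = 0.101), with overlapping samples. These p-values use a spread between labelled triplicates that is pooled over all 16 conditions, Q7 included. Each genotype was a single line. In a fit with the DKI and vehicle samples alone, 35 members were called, and DKI had no sample from collection day 1.

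DOP gave nearly the same member levels as DKI. Rpl3, a large-subunit protein that reaches towards the peptidyl transferase centre, was at 12.56, 12.68 and 12.50 under DOP and at 11.87, 12.13 and 12.09 in vehicle, with no overlap. Rpl12 was at 12.91, 12.60 and 12.64. By limma 54 of 59 members were higher and 0 lower, where 8.93% of all genes were higher, and the unadjusted p was under 0.05 for 57. The median difference was 0.40, a fold of 1.32, beside a median near 0 for all genes. Rpl3 rose by 0.55 (SE 0.08, adjusted p = 5.23e-06, 3 of 3 samples) and Rpl12 by 0.55 (SE 0.15, adjusted p = 0.006, 3 of 3 samples). The large subunit had 31 of 35 called and the small subunit 23 of 24. The 5 uncalled members were Rpl27 (0.36), Rpl35 (0.39), Rps7 (0.34), Rpl5 (0.17) and Rpl7l1 (-0.04). Without Q111 vehicle replicate 1, 30 members were called. Against nicotinamide and nortriptyline, the reference collected in the same day and time slots, 30 members were higher and 1 lower, with a median of 0.25 and 5.48% of all genes higher.

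Sodium butyrate, a short-chain fatty acid that inhibits histone deacetylases, raised most members as well. Rpl36a, a large-subunit protein at the exit site, was at 11.50, 11.43 and 11.31 under butyrate and at 10.64, 10.92 and 11.09 in vehicle. All butyrate samples were above all vehicle samples. By limma 51 members were higher and 0 lower, where 19.6% of all genes were higher, with a median of 0.37 and a fold of 1.29, beside 0.02 for all genes. Rpl36a rose by 0.53 (SE 0.10, adjusted p = 5.1e-05, 3 of 3 samples) and Rpl36 by 0.51 (SE 0.11, adjusted p = 0.00029, 3 of 3 samples). The large subunit had 33 of 35 called and the small subunit 18 of 24, and uncalled members included Rps2 (0.27), Rps3a1 (0.25) and Rps9 (0.23). Without Q111 vehicle replicate 1, 25 members were called. With 1 sample left out the member median ran from 0.241 to 0.475. Against the reference of the same collection slots, 27 were higher and 1 lower, with a median of 0.21 and 17% of all genes higher. Trichostatin A, another histone deacetylase inhibitor, was given at 10 nM, and doses of the 2 compounds cannot be matched. Under it Rps10 alone was called, at 0.21 (SE 0.07, adjusted p = 0.0485, 3 of 3 samples), where 6.41% of all genes were higher. The trichostatin A call was lost without any 1 of Q111 vehicle replicates 1 or 2 or the trichostatin A samples (0 members), and without Q111 vehicle replicate 3 there were 3.

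Meclizine, a piperazine antihistamine, raised a smaller set. Rpl22l1 was at 9.98, 9.73 and 9.98 and Rps18, a protein of the small-subunit head, at 12.88, 12.64 and 12.86, against 12.21, 12.39 and 12.54 for Rps18 in vehicle. Both were above vehicle in every sample. By limma 38 members were higher and 0 lower, where 13.1% of all genes were higher, with a median of 0.28. Rpl22l1 rose by 0.56 (SE 0.11, adjusted p = 0.000111, 3 of 3 samples) and Rps18 by 0.42 (SE 0.08, adjusted p = 0.000166, 3 of 3 samples). Called members were 21 of 35 in the large subunit and 17 of 24 in the small subunit, and Rps7 was at -0.02. The count was 11 without Q111 vehicle replicate 1, 15 without meclizine replicate 1 and 20 without meclizine replicate 3. With 1 sample left out the member median ran from 0.175 to 0.369. Against haloperidol and fingolimod phosphate, collected in the same slots as meclizine, 51 members were higher and 0 lower, with 14.8% of all genes higher.

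**Figure D2:**
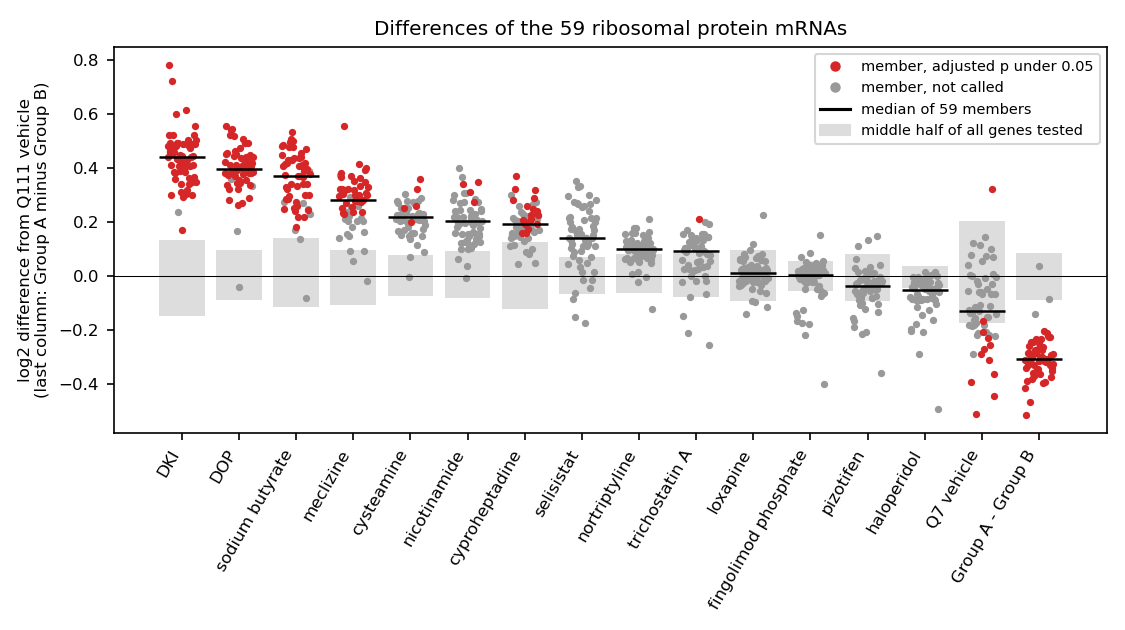
Log2 difference (vertical axis) of each of the 59 members (points) from Q111 vehicle by condition, and in the last column of Group A from Group B, red where called at an adjusted p under 0.05 and grey where not, with a black bar for the member median and a grey band for the middle 50% of all genes tested. Under DKI 58 points are red with a median of 0.44, and under haloperidol 0 are red with a median of -0.05.

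Cyproheptadine, loxapine and pizotifen, tricyclic compounds that block serotonin or histamine receptors, gave lower member levels than DKI. Rpl22l1 was at 9.89, 9.50 and 9.62 under cyproheptadine, at 9.52, 9.39 and 9.36 under loxapine and at 9.35, 9.50 and 9.51 under pizotifen. The last 2 overlapped vehicle, and cyproheptadine lay just above it. By limma cyproheptadine had 18 members higher and 0 lower, where 17.5% of all genes were higher, with a median of 0.19. Rpl27 rose by 0.37 (SE 0.14, adjusted p = 0.036, 3 of 3 samples) and Rpl22l1 by 0.32 (SE 0.11, adjusted p = 0.0158, 3 of 3 samples). With 1 sample left out the cyproheptadine median ran from 0.101 to 0.298. The cyproheptadine count was unstable. It was 1 without Q111 vehicle replicate 1, 10 without replicate 2 and 38 without replicate 3, 3 and 6 without cyproheptadine replicates 1 and 3, and 2 with only the compared samples in the fit.

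For loxapine limma called 0 members in either direction, with 2 at an unadjusted p under 0.05, where 21.9% of all genes were called in either direction. For pizotifen it called 0, with 2 at an unadjusted p under 0.05, where 17.9% of all genes were called. The member medians were 0.01 and -0.04. Over all genes, 2938 transcripts were called under loxapine and 2404 under pizotifen, none of them a member. Without Q111 vehicle replicate 1, pizotifen had 2 called members, and without pizotifen replicate 3 it had 1. Against nicotinamide and nortriptyline, in the same slots, loxapine had 5 members lower and 0 higher, where 10.9% of all genes were lower, so the count does not exceed that share.

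Cyproheptadine and loxapine, both at 10 µM, were compared directly. They shared no collection slot, and cyproheptadine had no sample from collection day 1. By limma 3 members were higher under cyproheptadine and 0 lower, where 4.91% of all genes were higher, so the count is about that share. These were Rpl5 (0.30, SE 0.08, adjusted p = 0.0109), Rpl14 (0.26, SE 0.08, adjusted p = 0.0368) and Rps4x (0.25, adjusted p = 0.0147), each higher in 3 of 3 samples. All 59 differences were above 0, from 0.05 to 0.34. The count was 0 without cyproheptadine replicate 1 and 1 without any single loxapine sample. Pizotifen, at 5 µM, is close to cyproheptadine in ring structure, but the doses differ and no comparison of the pair was made.

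Group A against Group B, a contrast that uses no vehicle sample, had most members lower in Group A. Mean member levels were 11.82 for loxapine, 11.76 for pizotifen and 11.91 to 12.05 in the cyproheptadine samples, and 12.24 and 12.08 for DKI and meclizine. The groups overlapped by sample, with cyproheptadine replicates 1 and 3 at 12.04 and 12.05 above meclizine replicate 2 at 11.94. By limma 56 of 59 members were lower in Group A and 0 higher, where 21.4% of all genes were lower, with a median of -0.31 beside a median near 0 for all genes. Rpl12 fell by 0.52 (SE 0.09, adjusted p = 2.5e-05) and Rpl22l1 fell by 0.47 (SE 0.07, adjusted p = 5.73e-07). The 3 members not called were Rpl37a (-0.14), Rps27l (-0.09) and Rpl7l1 (0.04). Leaving out any 1 of the 15 samples gave 51 to 56 called members. DKI and cyproheptadine share their dose and collection slots, and in that direct comparison 29 members were higher under DKI and 0 lower, where 14.7% of all genes were higher. Rpl12 was higher by 0.49 (SE 0.15, adjusted p = 0.0105) and Rpl22l1 by 0.40 (SE 0.11, adjusted p = 0.00378), each in 3 of 3 samples. This count was 6 without DKI replicate 1 and 11 without cyproheptadine replicate 2.

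The remaining compounds had 5 or fewer called members. Cysteamine, an aminothiol, had 5 members higher and 0 lower, with 37 at an unadjusted p under 0.05, where 2.33% of all genes were higher, among them Rps27l (0.36), Rps19 (0.32), Rpl3 (0.25) and Rpl9 (0.20). Nicotinamide, the amide form of vitamin B3, had 4 higher and 0 lower, with 35 at an unadjusted p under 0.05, where 2.82% were higher, namely Rps28 (0.35), Rpl36 (0.34), Rplp2 (0.31) and Rps19 (0.27). Rps19, a small-subunit protein mutated in Diamond-Blackfan anaemia, was at 11.92, 11.83 and 11.97 under cysteamine, 11.84, 11.90 and 11.86 under nicotinamide and 11.34, 11.64 and 11.79 in vehicle. Neither treated set overlapped vehicle. With only the compared samples in the fit the counts were 29 for cysteamine and 17 for nicotinamide. Both counts depended on single vehicle samples. Without Q111 vehicle replicate 1 both were 0, without replicate 3 they were 37 for cysteamine and 35 for nicotinamide, and without replicate 2 they were 3 and 1. Leaving out a treated sample also lowered them, to 1 without cysteamine replicate 1 and 0 without its replicate 3, and to 2, 0 and 1 without nicotinamide replicates 1, 2 and 3. Against nicotinamide and nortriptyline, limma called 0 members under cysteamine, where 0.082% of all genes were higher and 0.0373% lower, so hardly any gene was called in that comparison.

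Limma called 0 members under selisistat, an inhibitor of the deacetylase SIRT1, with 20 at an unadjusted p under 0.05, where 0.515% of all genes were called in either direction. Without selisistat replicate 3 it called 14, and without replicate 1 it called 3. For nortriptyline, a tricyclic antidepressant, it called 0 with 1 at an unadjusted p under 0.05, where 3.83% of all genes were called, and 1 without Q111 vehicle replicate 3. For fingolimod phosphate, an agonist of sphingosine phosphate receptors, it called 0 with 2 at an unadjusted p under 0.05, where 0.0597% of all genes were called. For haloperidol, a dopamine receptor blocker, it called 0 with 2 at an unadjusted p under 0.05, where 0% of all genes were called. An exact permutation test of a single member between 2 conditions could not give a p below 0.1 with 3 samples a side, so it adds nothing here.

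Between Q7 and Q111 vehicle cells, limma called 1 member higher in Q7, where 29.2% of all genes were higher, and 11 lower, where 26.6% were lower, and 47 were not called. Rpl35a, a large-subunit protein, was at 10.81, 10.91 and 10.75 in Q7 and at 11.10, 11.37 and 11.52 in Q111. Rps3a1, at the mRNA exit side of the small subunit, was at 12.40, 12.40 and 12.41 in Q7 and at 12.65, 12.86 and 13.02 in Q111. The groups did not overlap for either gene, and Q7 was lower. The member median was -0.13 beside 0.00 for all genes, and ran from -0.22 to -0.018 with 1 sample left out. Rpl35a fell by 0.51 (SE 0.10, adjusted p = 3.3e-05), Rps3a1 fell by 0.44 (SE 0.10, adjusted p = 0.000395) and Rps4x fell by 0.37 (adjusted p = 2.07e-05), each in 3 of 3 samples. Rpl15 (-0.39), Rps20 (-0.31), Rpl6 (-0.29), Rplp1 (-0.27), Rps23 (-0.26), Rps19 (-0.23), Rpl9 (-0.21) and Rplp0 (-0.17) were also lower, and Rps27l was higher at 0.32 (SE 0.09, adjusted p = 0.00374, 3 of 3 samples). The count was 24 without Q111 vehicle replicate 1 and 8 without Q7 vehicle replicate 1.

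**Figure D3:**
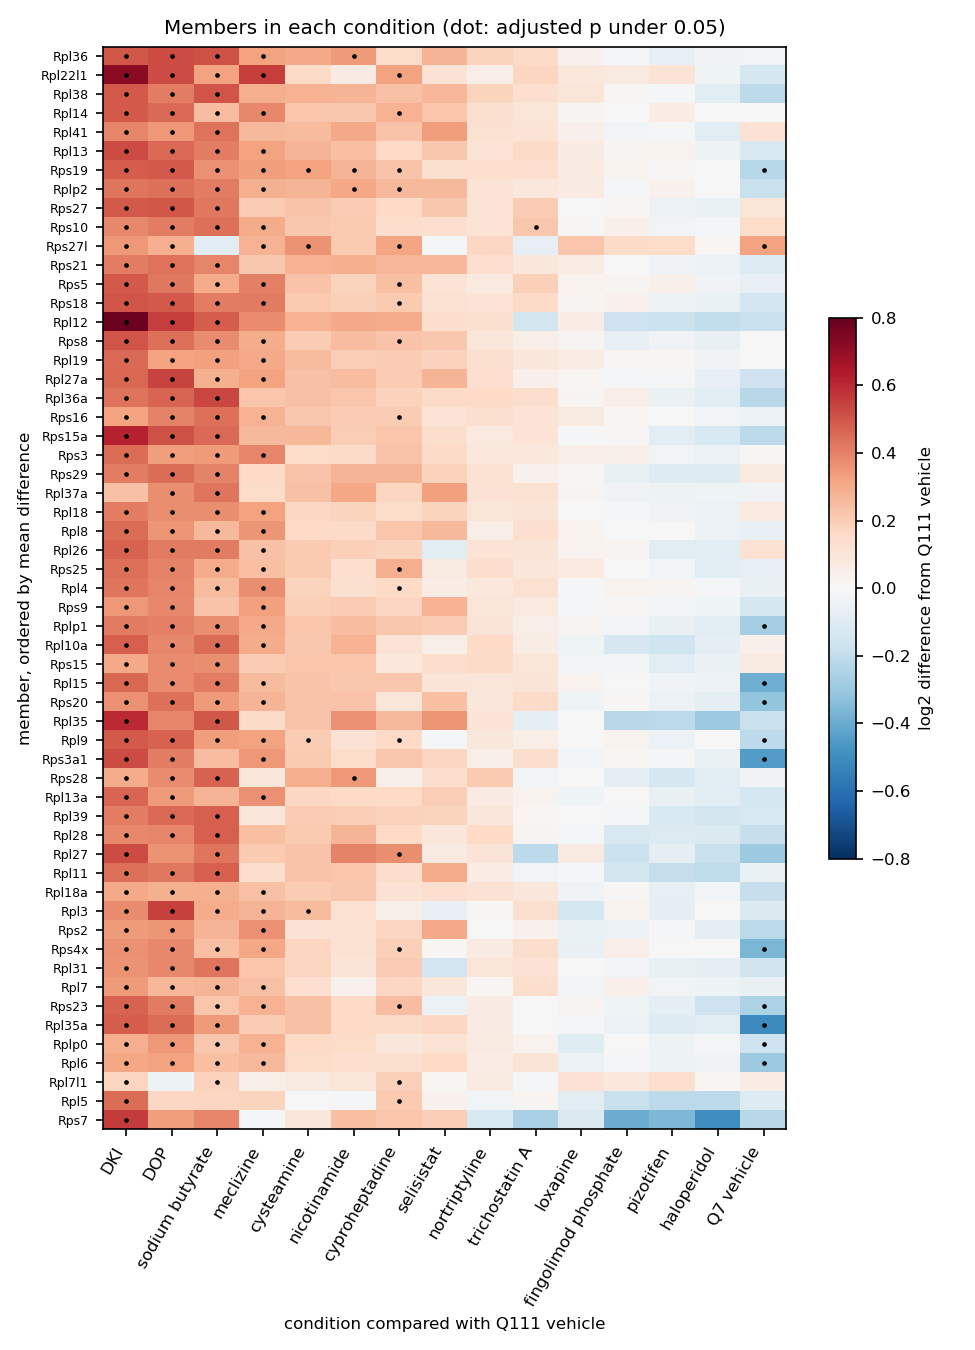
Log2 difference of 57 of the 59 members (vertical axis) against Q111 vehicle in 15 comparisons (horizontal axis), on a colour scale from lower to higher, with a dot where the gene was called. Dots fill most of the DKI, DOP, sodium butyrate and meclizine columns, where 58, 54, 51 and 38 of all 59 members were called, and 12 cells of the Q7 column.

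By role, the stalk proteins moved with the others. Rplp0, Rplp1 and Rplp2 form the acidic stalk that recruits translation factors. Rplp0 was at 14.26, 14.17 and 14.13 under DKI and at 13.80, 13.86 and 14.04 in vehicle, and 14.28, 14.22 and 14.23 under DOP. The treated samples were above vehicle in every case. Differences under DKI were 0.29 for Rplp0, 0.42 for Rplp1 and 0.43 for Rplp2, and under DOP 0.34, 0.40 and 0.44, all called. Under meclizine Rplp0 was at 0.28 (adjusted p = 0.00265), and in Q7 Rplp0 and Rplp1 were lower at -0.17 (adjusted p = 0.0428) and -0.27 (adjusted p = 0.0424). In Group A against Group B the differences were -0.30, -0.30 and -0.23.

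Rpl5 and Rpl11 carry the small ribosomal RNA of the large subunit into the ribosome. Rpl5 was at 11.57, 11.50 and 11.39 under DKI, 11.33, 11.07 and 11.22 under DOP, and 10.86, 11.10 and 11.15 in vehicle. DKI samples stood apart from vehicle, and DOP samples overlapped it. Rpl5 was higher by 0.45 under DKI (adjusted p = 1.41e-05) and not called under DOP at 0.17 (adjusted p = 0.127) or sodium butyrate at 0.17 (adjusted p = 0.0853), and the direct difference between DKI and DOP was 0.28 (SE 0.08, adjusted p = 0.00354, 3 of 3 samples). Rpl11 was higher by 0.44 under DKI (adjusted p = 0.00792), 0.42 under DOP (adjusted p = 0.0222) and 0.48 under sodium butyrate (adjusted p = 0.00447), and was not called under meclizine at 0.14 (adjusted p = 0.494).

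Rps3, at the mRNA entry channel, was higher by 0.44 under DKI (adjusted p = 0.000303), 0.34 under DOP (adjusted p = 0.0115), 0.34 under sodium butyrate (adjusted p = 0.0051) and 0.39 under meclizine (adjusted p = 0.00212). Rpl39, in the exit tunnel, was at 0.41 under DKI, 0.45 under DOP and 0.48 under sodium butyrate, all called, and at 0.09 under meclizine (adjusted p = 0.606). Between the 16 condition means, Rps7 (SD 0.31), Rpl12 (SD 0.30) and Rpl35 (SD 0.28) varied most and Rpl7l1 (SD 0.07) and Rpl7 (SD 0.13) least. The SD includes replicate noise, which was wide for Rps7.

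Some members are paralogs of a canonical protein, and the differences between paralogs were not tested. Under DKI, Rpl22l1 rose by 0.72 and Rpl22 by 0.30 (adjusted p = 0.00214), and under DOP they rose by 0.52 and 0.42. Rps27l, a p53-responsive paralog of Rps27, was at 9.71, 9.63 and 9.64 under sodium butyrate and at 9.61, 9.81 and 9.81 in vehicle, and Rps27 was at 11.63, 11.68 and 11.48 against 10.89, 11.21 and 11.43. The Rps27l samples overlapped and those of Rps27 did not. Their differences under butyrate were -0.08 (adjusted p = 0.526) for Rps27l and 0.42 (adjusted p = 0.00209) for Rps27. Under meclizine they were 0.28 (adjusted p = 0.0231) and 0.21 (adjusted p = 0.163). Rpl7l1, a paralog with a role in early large-subunit assembly, was at 9.79, 9.83 and 9.78 under DOP, 10.11, 9.98 and 9.95 under DKI and 9.82, 9.84 and 9.87 in vehicle. Only DKI among these stood above vehicle. It was higher by 0.17 under DKI (adjusted p = 0.00516), 0.18 under sodium butyrate (adjusted p = 0.00311) and 0.19 under cyproheptadine (adjusted p = 0.00222), was at -0.04 under DOP (adjusted p = 0.6), and differed by 0.21 between DKI and DOP directly (SE 0.05, adjusted p = 0.000536).

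**Figure D4:**
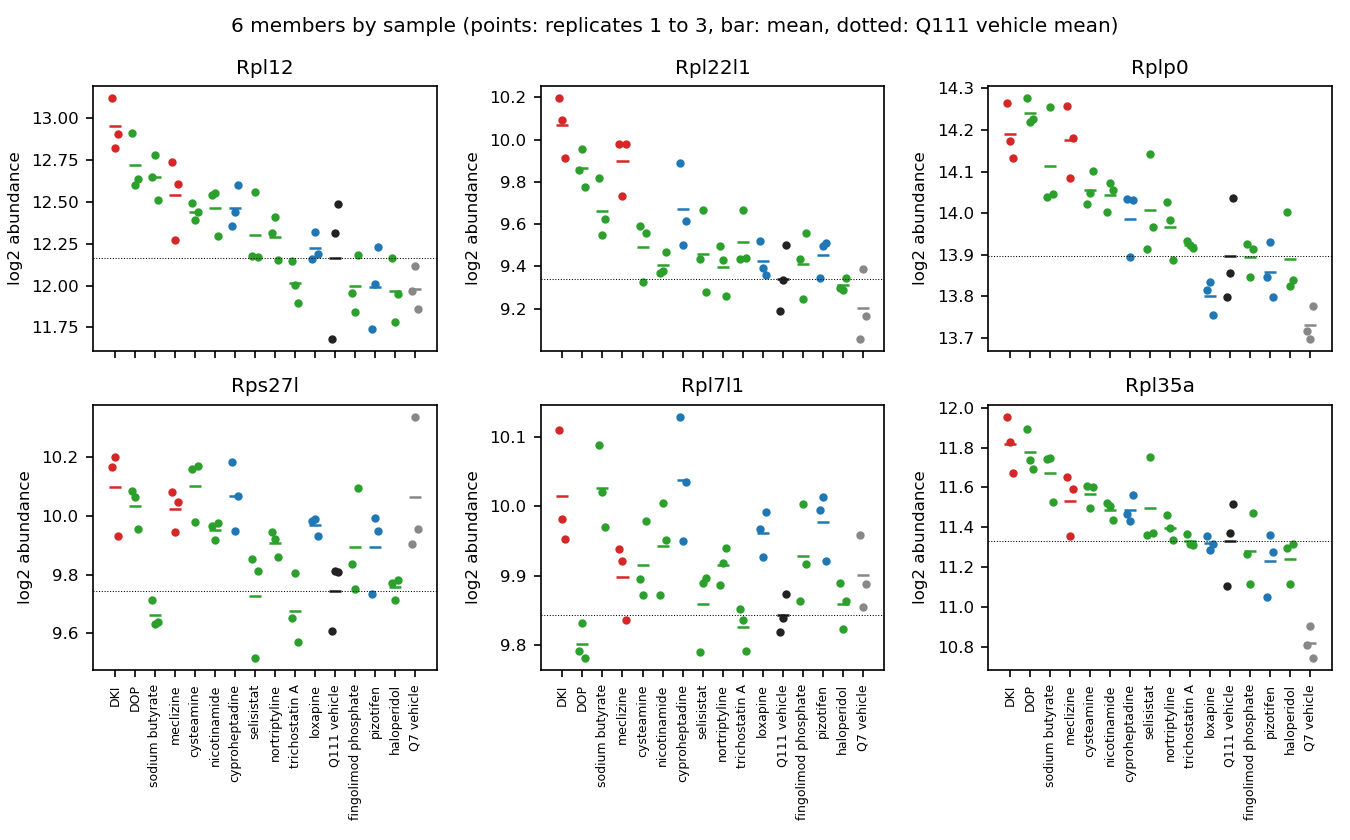
Log2 level of Rpl12, Rpl22l1, Rplp0, Rps27l, Rpl7l1 and Rpl35a (vertical axes) in each of the 48 samples by condition (horizontal axes), with a bar for the condition mean, a dotted line for the Q111 vehicle mean, and colour for Group A (blue), Group B (red), other compounds (green) and vehicles (black, grey). Rpl22l1 lies at 9.91 to 10.20 under DKI and 9.19 to 9.50 in Q111 vehicle, and Rpl35a is lowest in Q7 vehicle at 10.75 to 10.91.

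The name field held several symbols for 20 further ribosomal protein entries, which the naming rule leaves out. They include the kinase target Rps6, the laminin-binding Rpsa, the ubiquitin fusion Rps27a, and Rpl10, which completes the large subunit. Of these 20, 20 were higher under DKI, 20 under DOP, 20 under sodium butyrate, 17 under meclizine, 5 under cyproheptadine and 8 under cysteamine, 7 were lower in Q7, and 20 were lower in Group A than in Group B. In the same order, 20.4%, 8.93%, 19.6%, 13.1%, 17.5% and 2.33% of all genes were higher, 26.6% were lower in Q7 and 21.4% were lower in Group A, so the cyproheptadine and Q7 counts are near those shares. Rps6 was at 13.51, 13.24 and 13.23 under DKI and at 12.56, 12.79 and 12.98 in vehicle, without overlap, and rose by 0.55 (SE 0.10, adjusted p = 1.78e-05). Rps27a rose by 0.61 under DKI (SE 0.10, adjusted p = 4.83e-06) and Rpsa by 0.39 (SE 0.11, adjusted p = 0.00288).

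Many processed copies of these genes exist, and reads can be shared between a gene and its copies. Of 300 named ribosomal protein pseudogenes in the annotation, 217 had an entry and 26 reached a mean of 6, of which 16 are copies of 14 members. Rps2 was at 13.04 and its copy Rps2-ps10 at 12.87, Rpl3 at 12.13 and Rpl3-ps1 at 12.41, and Rps23 at 11.70 and Rps23-ps1 at 11.58, so the values of these members are uncertain. The Q7 difference was -0.22 for Rps2, -0.75 for the copy and -0.45 for their sum. Under DKI the values for Rps2 were 0.34, 0.28 and 0.31. With members summed with their copies, 58 were higher under DKI, 55 under DOP, 52 under sodium butyrate and 41 under meclizine, with 0 lower, where 20.4%, 8.93%, 19.6% and 13.1% of all genes were higher in the main fit. In Q7 the sums gave 16 lower and 1 higher, where 26.6% and 29.2% of all genes were, so the lower count is near that share and the higher count under it.

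The other genes of protein synthesis were described by fixed lists. Under DKI, 26 of 29 ribosome assembly genes were higher and 0 lower (median 0.68), 18 of 29 initiation and elongation factors were higher and 0 lower (median 0.22), and 14 of 21 other TOP mRNAs were higher and 0 lower (median 0.25). Gnl3, which encodes nucleostemin, was at 10.17, 9.85 and 9.93 under DKI and at 8.94, 9.11 and 9.03 in vehicle. The transcription factor Myc was at 10.34, 9.85 and 10.08 against 8.57, 8.80 and 8.65. No samples overlapped for either gene. Gnl3 rose by 0.96 (SE 0.08, adjusted p = 5.47e-12) and Myc by 1.42 (SE 0.12, adjusted p = 1.96e-12), each in 3 of 3 samples. The small-subunit maturation factor Rrp12 rose by 0.88 (adjusted p = 1.05e-09), the TOP message Npm1 for nucleophosmin by 0.80 (adjusted p = 6.05e-08), and Ppp1r15a, a phosphatase subunit of the stress response, by 1.89 (adjusted p = 1.05e-14). Fau, which encodes a ribosomal protein fused to a ubiquitin-like sequence, rose by 0.51 (adjusted p = 0.00106). Of 24 translation control genes 9 were higher and 6 lower, where 20.4% of all genes were higher and 21.9% lower, so the lower count is near that of all genes.

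Under DOP and sodium butyrate most members rose and few assembly genes did. Under DOP 8.93% of all genes were higher and 11.2% lower. Of 29 assembly genes 2 were higher, near the share of all genes, and 8 lower (median -0.06), with Rrp12 at -0.35 (adjusted p = 0.00649) and Polr1b, an RNA polymerase I subunit, at -0.32 (adjusted p = 0.000253), while 15 of 21 other TOP mRNAs were higher and 0 lower, with Eef1b2 at 0.44 (adjusted p = 0.000229) and Naca at 0.43 (adjusted p = 2.57e-05). Gnl3 was at 8.86, 8.84 and 8.83 under DOP, below every vehicle sample, but was not called at -0.18 (adjusted p = 0.111). Of the factors 4 were higher and 5 lower, with Eif4g1, the initiation scaffold, at -0.38 (adjusted p = 1.84e-05), and 9 of 24 translation control genes were lower and 0 higher. Under sodium butyrate, where 19.6% of all genes were higher and 17.8% lower, 2 assembly genes were higher and 9 lower (median -0.10), with Rrp12 at -0.45 (adjusted p = 0.000208), 8 TOP mRNAs were higher and 0 lower, and 11 translation control genes were lower and 3 higher.

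DKI and DOP, which shared no collection slot, were then compared directly. DKI had no sample from collection day 1. By limma 2 of 59 members were higher under DKI, Rpl5 and Rpl7l1, and 0 were lower, where 22.6% of all genes were higher, and the member median was 0.04. In the same comparison, where 23.9% of all genes were lower, 26 of 29 assembly genes were higher and 0 lower (median 0.68), 19 of 29 factors were higher and 2 lower, and 5 of 21 TOP mRNAs were higher and 1 lower. Rrp12 was higher by 1.23 (SE 0.09, adjusted p = 2.32e-13) and Gnl3 by 1.14 (SE 0.08, adjusted p = 5.93e-14). The member count was 1 without DOP replicate 2 and 4 without DKI replicate 3. A difference that missed the threshold does not show that members were equal, and the member differences ran from -0.17 to 0.28.

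Meclizine and cyproheptadine raised assembly genes too, with 21 higher and 0 lower (median 0.36) and 23 higher and 1 lower (median 0.37) of 29, where 13.1% and 17.5% of all genes were higher. Under meclizine 15 of 29 factors and 14 of 21 TOP mRNAs were higher, and under cyproheptadine 19 and 6. Loxapine and pizotifen, with 0 members called, had 16 and 13 assembly genes higher and 1 and 0 lower, with medians of 0.24 and 0.21, where 10.1% and 8.86% of all genes were higher. In Q7 cells 16 assembly genes were higher and 1 lower than in Q111 (median 0.18), where 29.2% of all genes were higher. In Group A against Group B, 23 assembly genes, 18 TOP mRNAs and 13 factors were lower, and 0, 0 and 1 were higher, where 21.4% of all genes were lower and 19.9% higher.

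**Figure D5:**
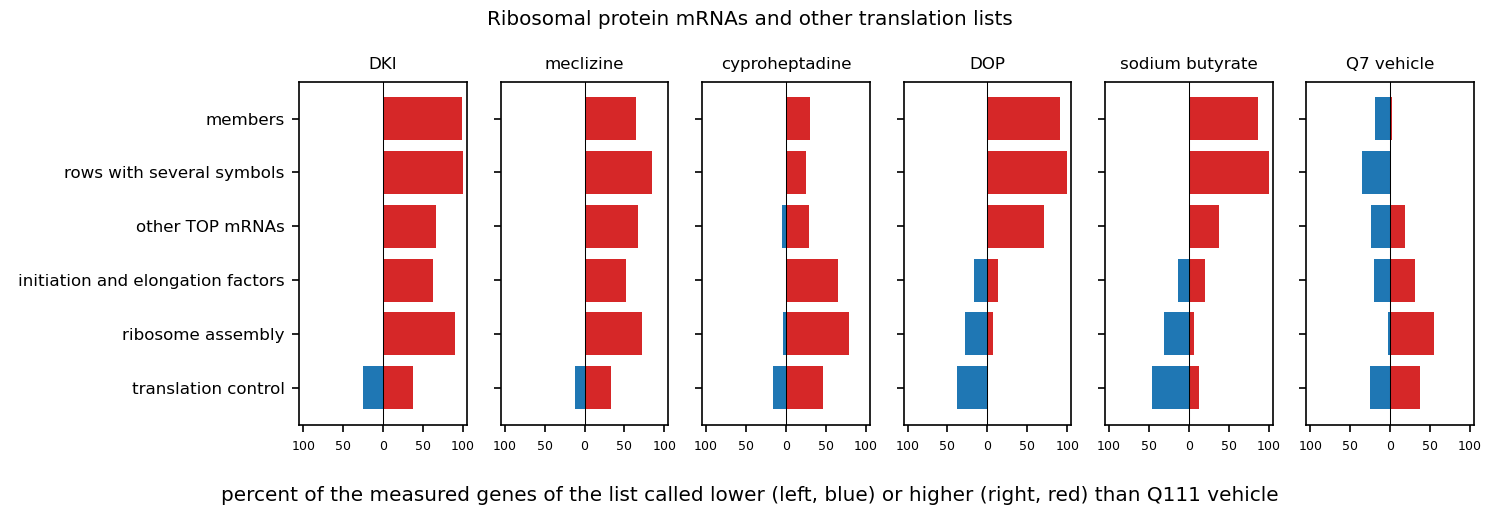
Percent of the measured genes of each list (vertical axis) called lower (left, blue) or higher (right, red) at an adjusted p under 0.05 (horizontal axes) in the DKI, meclizine, cyproheptadine, DOP, sodium butyrate and Q7 comparisons with Q111 vehicle. Members are high under DKI, DOP and sodium butyrate (58, 54 and 51 of 59), while ribosome assembly genes called higher number 26, 2 and 2 of 29.

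Cell-type markers moved in the same comparisons. The level of a list is the log2 of its summed linear values, so its most abundant genes set most of it. For the progenitor list in Q111 vehicle it averaged 15.47, where Vim alone was at 15.42. The mesenchymal list was at 15.44, 15.25 and 15.37 in Q111 vehicle, 14.37, 14.64 and 14.52 under DKI, and 14.80, 14.82 and 14.83 under meclizine. Under DOP it was 15.28, 15.08 and 15.15, and under sodium butyrate 15.66, 15.66 and 15.55. DKI and meclizine lay below vehicle, butyrate above it, and DOP overlapped it. Of 6 mesenchymal markers tested, 5 were lower under DKI, 4 under meclizine and 4 under cyproheptadine, 0 under DOP were called, and 3 were higher under sodium butyrate. Over all genes, 21.9% were lower under DKI, 13.6% under meclizine and 18.2% under cyproheptadine, and 19.6% were higher under sodium butyrate. Under DOP 8.93% of all genes were higher and 11.2% lower. The collagen genes Col3a1 and Col1a1 fell by 1.21 and 0.87 under DKI. The progenitor list, led by Vim, was at 14.85 to 15.11 under DKI and at 15.44, 15.43 and 15.55 in vehicle, and the oligodendrocyte list, led by Cnp, at 7.24, 7.57 and 7.39 against 8.04, 7.92 and 8.13. The astrocyte list, led by Slc1a3, was at 6.97, 7.23 and 7.02 against 7.55, 7.65 and 7.55. All 3 sums were lower under DKI in all samples. Vim fell by 0.50 (adjusted p = 9.7e-07), Cnp by 0.71 (adjusted p = 2.52e-10) and Slc1a3 by 0.56 (adjusted p = 0.000563).

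The same lists were below every vehicle sample under meclizine, at 15.28, 15.21 and 15.24 for progenitor markers, 7.71, 7.73 and 7.73 for oligodendrocyte markers and 7.35, 7.28 and 7.30 for astrocyte markers. Vim fell by 0.23 (adjusted p = 0.0172) and Cnp by 0.34 (adjusted p = 0.000351). They were also below vehicle under cyproheptadine, with means of 15.19, 7.54 and 7.06. Under pizotifen, with 0 members called, the astrocyte, oligodendrocyte and mesenchymal lists were below vehicle, with means of 7.12, 7.71 and 15.05. Under trichostatin A, with 1 member called, the progenitor list was below vehicle, with a mean of 15.27. The astrocyte, oligodendrocyte and mesenchymal lists overlapped vehicle under trichostatin A.

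Under DOP the progenitor list was above vehicle, at 15.68, 15.69 and 15.66, but so it was in 3 other compounds of the same collection slots, at 15.69, 15.68 and 15.66 under nicotinamide, 15.63, 15.68 and 15.58 under nortriptyline and 15.68, 15.74 and 15.74 under cysteamine. Sodium butyrate and loxapine, also of those slots, overlapped vehicle. The oligodendrocyte list was at 8.24, 8.19 and 8.25 under DOP, with Cnp higher by 0.21 (adjusted p = 0.0343), and reached 8.19 under nortriptyline. The astrocyte list, at 7.75, 7.75 and 7.63 under DOP, overlapped vehicle, but Slc1a2 on that list was lower by 0.37 (adjusted p = 0.0131). The microglia list, led by Ptprc, was at 10.38, 10.40 and 10.37 under DOP and at 10.55, 10.75 and 10.47 in vehicle. It was also below vehicle under sodium butyrate, loxapine, nicotinamide, nortriptyline and cysteamine, of those slots. Outside those slots it was below vehicle under meclizine, pizotifen and selisistat as well. Sodium butyrate raised Nes by 1.29 (adjusted p = 0.0027), Flt1 of endothelial cells by 0.62 (adjusted p = 0.000153), Slc1a3 by 0.41 (adjusted p = 0.0107) and Cnp by 0.36 (adjusted p = 0.000112).

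In Q7 cells the mesenchymal sum was at 14.77, 15.25 and 15.28 and overlapped Q111 vehicle. Of its 6 markers, Col1a2 was lower by 2.69 (adjusted p = 5.78e-26) and Pdgfra by 1.33 (adjusted p = 2.67e-20), and Col1a1 (0.02), Col3a1 (0.08), Pdgfrb (-0.03) and Dcn (-0.07) were not called. Ptprc was lower by 2.73 (adjusted p = 3.64e-16), and Nes and Flt1 were higher by 5.99 (adjusted p = 4.62e-18) and 2.65 (adjusted p = 1.76e-20). The astrocyte list was at 6.60, 7.17 and 7.11 in Q7, below every Q111 vehicle sample. On that list Slc1a3 was lower by 0.90 (adjusted p = 1.48e-07) and Aldh1l1 higher by 0.22 (adjusted p = 0.00209). In Group A against Group B, 4 of 6 mesenchymal markers were higher and 0 lower, where 19.9% of all genes were higher and 21.4% lower. Col1a1 among them was at 0.43 (adjusted p = 2.05e-05). Vim was higher by 0.27 (adjusted p = 1.33e-05), Flt1 by 0.37 (adjusted p = 0.0003) and Cnp by 0.19 (adjusted p = 0.000727), while Msi1, a neural progenitor gene, was lower by 0.22 (adjusted p = 0.00156). The part of these markers in the member differences was not tested, and in bulk RNA fewer cells of a type and less RNA per cell cannot be told apart.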

How the data were processed

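Values are the deposited log2 levels of the authors' table, 1 per gene and sample, normalized between samples. The submitters' processing notes name Trimmomatic 0.36, RSEM on the GRCm38.p5 transcriptome and DESeq2. The transformation is not named, and the values behave as regularized log2 counts, not per length. Counts were not used here, so the depth per sample and the precision it gives are unknown. Genes with a symbol and a mean of at least 1 (13409) were fitted with limma 3.58.1 in R 4.3.3, with a trend, 16 conditions and collection day over all 48 samples. Tests were two-sided, with Benjamini-Hochberg adjustment over all genes tested and a threshold of 0.05. The fit was checked on simulated data. Members and lists were chosen with earlier results of these data known. Genes were named by role, as paralog pairs, as the called members with the largest differences in a comparison, as the members varying most or least between conditions, and as the most changed genes of each list. Others named (such as uncalled members, Gnl3 and Myc across compounds, and every called member where few were called) were chosen after their values were seen, as were the direct comparisons of DKI with cyproheptadine and DOP, and of cyproheptadine with loxapine. Alternatives covered the filter, the terms, the samples fitted, the scaling, the reference, and leaving out each sample.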

Additional observations from a re-analysis of the deposited data

How the results depend on the processing

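Of 4377 values of the 246 named gene differences under the alternatives, 4085 kept their direction and side of the threshold, 289 kept the direction but missed the threshold, 3 newly passed it and 0 reversed. Counts of called members moved by more than 1.5 times as follows, and the cause was not tested. With no filter on the mean, cyproheptadine had 10, trichostatin A 0, nicotinamide 2 and cysteamine 3. With a minimum mean of 6, pizotifen had 2 and cysteamine 8, as they did with no collection day term (2 and 8). With collection time as a further term, trichostatin A had 0 and cysteamine 3. Without a trend, trichostatin A had 0. With only the compared samples in the fit, which leaves fewer samples to estimate the spread, cyproheptadine had 2, loxapine 1, trichostatin A 0, DKI 35, nicotinamide 17, fingolimod phosphate 1, pizotifen 5, cysteamine 29 and DKI against DOP 4. Centred on other genes, pizotifen had 1 and cysteamine 8. Against the reference of the same collection slots, trichostatin A had 2, sodium butyrate 28, loxapine 5, DOP 31 and cysteamine 0. With the entries of several symbols added, an alternative chosen after seeing the data, trichostatin A had 3 and cysteamine 13.

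With the replicate number as a block in place of collection day, DKI had 58, DOP 54, sodium butyrate 51, meclizine 38, cyproheptadine 20, Q7 12 and Group A against Group B 56. Replicate number and collection day are the same label except in replicate 1 of cyproheptadine and of DKI. This alternative is therefore close to the main fit, and its similar counts are not an independent check. Samples of the same number were seldom correlated: 9 of 120 pairs of conditions had a mean same-number correlation over 0.1.

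Leaving out each sample in turn gave 8 to 24 called members for Q7, 11 to 50 for meclizine, 25 to 58 for sodium butyrate, 1 to 38 for cyproheptadine, 30 to 56 for DOP, 46 to 59 for DKI, 0 to 14 for selisistat, 0 to 3 for trichostatin A, 0 to 35 for nicotinamide, 0 to 1 for nortriptyline, 0 to 2 for pizotifen, 0 to 37 for cysteamine, and 0 to 0 for loxapine, fingolimod phosphate and haloperidol. Direct comparisons gave 51 to 56 for Group A against Group B, 6 to 33 for DKI against cyproheptadine, 0 to 4 for cyproheptadine against loxapine and 1 to 4 for DKI against DOP. Counts against the vehicle rest on 3 vehicle samples whose members spread by 0.39, and comparisons against that vehicle share it. The members' median residual SD was 0.127, against 0.086 for all genes tested. No pseudocount alternative was run, since the values were already logarithms. With no counts, the limits that depth sets are unknown.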

Other observations

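Myc and Ppp1r15a, genes of the translation control list, were higher in comparisons with many called members and in some with 0. Against the shared Q111 vehicle, Myc was higher by 1.42 under DKI (adjusted p = 1.96e-12), 1.01 under meclizine (adjusted p = 1.56e-08), 0.70 under cyproheptadine (adjusted p = 9.18e-06), 0.52 under loxapine (adjusted p = 0.00103) and 0.35 under pizotifen (adjusted p = 0.028), each in 3 of 3 samples by limma. It was not called under DOP at -0.19 (adjusted p = 0.247) or under sodium butyrate at 0.18 (adjusted p = 0.227), where 54 and 51 members were higher. Ppp1r15a was higher by 1.89 under DKI (adjusted p = 1.05e-14), 1.26 under meclizine (adjusted p = 3.05e-10) and 0.86 under cyproheptadine (adjusted p = 7.11e-07), and was not called under DOP at -0.14 (adjusted p = 0.468) or sodium butyrate at 0.07 (adjusted p = 0.678). These values were chosen after they were seen.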
